A study of Drosophila melanogaster with 15 samples.

Results

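Tubulin, actin and motor protein genes were followed across 5 dissected tissues of Drosophila melanogaster larvae at about 18 hours before pupariation. The members were the measured array rows annotated to exactly 1 gene whose symbol begins with alphaTub, betaTub, gammaTub, Act or Arp or Klp plus a digit, Dhc or Dlc. This rule, which uses names and no measured value, gave 29 rows of 27 genes, out of 9894 named genes measured. It was chosen with earlier results of these data known. There were 3 alpha-tubulin, 4 beta-tubulin and 1 gamma-tubulin genes, 3 actin genes, 2 genes of actin-related proteins, 8 kinesin genes and 6 dynein heavy chain genes. No Dlc gene was a member, since the measured row of Dlc90F is annotated to a second gene as well.

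The study set single tissues against whole animals. All larvae were wild-type Canton S, and the tissues were the central nervous system (CNS), midgut, wing imaginal disc, salivary gland, and epidermis dissected with its attached muscle. Each of the 15 arrays set 1 tissue, in Cy5, against whole animals of the same age, in Cy3, with 3 independent samples per tissue, amplified RNA and no dye swap. A value is therefore the log2 of the tissue signal over that of the whole animal, centred on the median of its array, so that 0 is the level in the whole animal relative to the median row. The ratio compares tissues for 1 gene, and it gives no level of one gene against another.

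Microtubules are polymers of alpha- and beta-tubulin dimers, and gamma-tubulin starts their growth at centrosomes and other sites. Kinesins and dyneins are motors that walk along microtubules, some carrying cargo and some building the mitotic spindle or moving cilia and flagella. Actin forms the thin filaments of muscle and the cytoskeleton below the membrane of most cells. Drosophila encodes each tubulin and actin in several genes with closely similar coding sequences, and some of them are known for 1 tissue: betaTub85D for the testis, alphaTub67C and gammaTub37C for the female germ line, and Act88F for the indirect flight muscle of the adult. The whole larva holds the gonads and the fat body besides the tissues dissected here.

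Arrays measured between 7747 rows (epidermis with muscle, replicate 3) and 13505 rows (epidermis with muscle, replicate 2). Arrays of 1 tissue correlated at 0.687 to 0.924 over the 4540 features measured on all arrays, lowest in epidermis with muscle. Marker lists were set against the mean of the other 4 tissues. They were chosen with earlier results of these data known, so they are no independent check of the dissections. In epidermis with muscle 9 of 11 muscle genes and 5 of 5 cuticle genes were higher (background 8.11% of all features). So were 3 of 4 salivary gland genes in salivary gland (7.72%), 13 of 13 midgut genes in midgut (14.2%) and 3 of 4 wing disc genes in wing disc (9.48%). In the CNS 2 of 5 neuron and glia genes were higher (12.0%), and 1 of the 5 passed the F test over tissues. Of 4 fat body genes tested, 4 were higher in salivary gland than in the mean of the other 4 tissues, by a median of 2.64 on the log2 scale. The part of fat body RNA in the salivary gland values below was not tested.

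Of the 27 members, 20 were measured on at least 2 of 3 arrays in every tissue and entered the tests among tissues, and 14 had a value on all 15 arrays. In limma's F test over the 5 tissues, 14 of the 20 differed, which is 70% of them, against 44.5% of all 8432 features tested (Benjamini-Hochberg adjusted p under 0.05). These were the 7 alpha- and beta-tubulins, the 3 actins, the kinesins Klp61F, Klp67A and Klp68D, and Dhc64C. Arp8, Arp10, Klp10A, Klp98A, Dhc36C and Dhc62B did not pass. The tissue means of a member spanned a median of 1.46 log2 between the highest and the lowest tissue, against 0.93 over all features tested. The median span was 2.45 for actins, 2.23 for beta-tubulins, 1.59 for alpha-tubulins, 1.24 for kinesins, 1.20 for dynein heavy chains and 0.28 for the actin-related genes. In whole-tissue RNA, fewer cells of a type and less RNA per cell cannot be told apart.

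**Figure D1:**
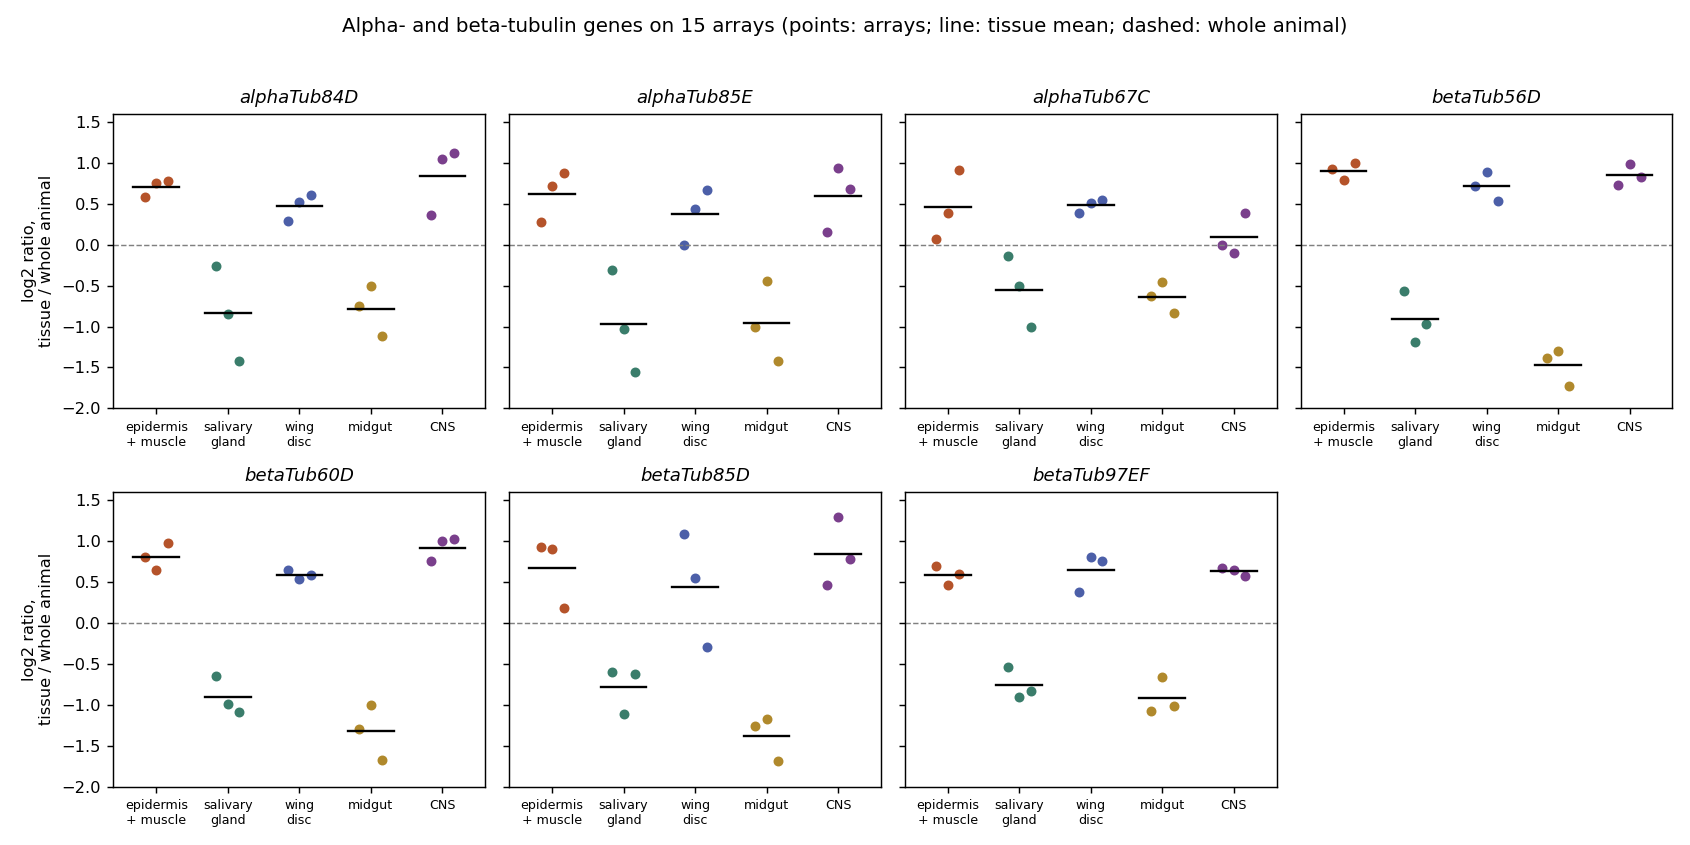
Log2 ratio of tissue over whole animal (vertical axis) for the 7 alpha- and beta-tubulin genes in 5 tissues, with 1 point per array, a line at the tissue mean and a dashed line at the whole animal's level. In every panel the arrays of salivary gland and midgut lie below 0 and below every array of the other 3 tissues. Values of alphaTub67C and betaTub56D are averages of 2 rows where both were measured.

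The beta-tubulins, the subunit that carries the exchangeable GTP of the dimer, shared a single pattern over the tissues. All 4 genes were above the whole animal's level on average in epidermis with muscle, wing disc and CNS, and below it in salivary gland and midgut. The median of the 4 genes was 0.74 in epidermis with muscle, 0.61 in wing disc, 0.85 in the CNS, -0.84 in salivary gland and -1.35 in midgut. All 4 were lower in midgut and in salivary gland than in the mean of the other 4 tissues, and all 4 were higher in epidermis with muscle and in the CNS. In wing disc 3 of the 4 were higher, and betaTub85D did not pass.

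betaTub56D, the main beta-tubulin of most cells, had log2 ratios of 0.92, 0.79 and 1.0 in epidermis with muscle, 0.72, 0.89 and 0.53 in wing disc, and 0.73, 0.99 and 0.83 in the CNS. It had -0.57, -1.19 and -0.97 in salivary gland and -1.38, -1.30 and -1.73 in midgut. The first 3 tissues were high and the last 2 low, with no overlap between these groups of arrays. Against the mean of the other 4 tissues it was lower in midgut by 1.86 log2 (SE 0.17, adjusted p = 4.09e-07), a 3.63-fold difference, and higher in epidermis with muscle by 1.10 (SE 0.17, adjusted p = 0.00024). The gene was read by 2 rows, whose tissue means were 0.91 and 0.89 in epidermis with muscle and -1.50 and -1.44 in midgut.

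betaTub60D, known from developing muscle and other mesodermal cells, had 0.81, 0.64 and 0.98 in epidermis with muscle, 0.64, 0.53 and 0.58 in wing disc, and 0.75, 1.0 and 1.02 in the CNS. Its values were -0.65, -0.99 and -1.09 in salivary gland and -1.30, -1.0 and -1.67 in midgut. Again the high and the low tissues did not overlap, and epidermis with muscle was not set apart from the CNS. It was lower in midgut by 1.67 log2 against the mean of the other 4 tissues (SE 0.171, adjusted p = 1.51e-06) and higher in the CNS by 1.13 (SE 0.171, adjusted p = 0.000237). betaTub97EF ran the same way, 0.74 log2 higher in the CNS, 0.76 higher in wing disc and 1.20 lower in midgut, and its means lay between -0.92 in midgut and 0.65 in wing disc.

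betaTub85D, the beta-tubulin of the testis, had 0.93, 0.90 and 0.18 in epidermis with muscle, 1.08, 0.55 and -0.30 in wing disc, and 0.46, 1.29 and 0.78 in the CNS. It had -0.60, -1.11 and -0.62 in salivary gland and -1.26, -1.17 and -1.69 in midgut. The spread was widest in wing disc, where replicate 3 lay below 0, yet no array of salivary gland or midgut reached any array of the other 3 tissues. The order of its means was CNS 0.84, epidermis with muscle 0.67, wing disc 0.44, salivary gland -0.78 and midgut -1.38. Neighbours in that order did not pass limma's test, with adjusted p = 0.798 for epidermis with muscle against CNS, 0.781 for epidermis with muscle against wing disc and 0.308 for salivary gland against midgut. The exception was the step between salivary gland and wing disc, a difference of -1.22 log2 (SE 0.335, adjusted p = 0.0171).

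Against the mean of the other 4 tissues, betaTub85D was lower in midgut by 1.67 log2 (SE 0.265, adjusted p = 0.000146) and lower in salivary gland by 0.92 (SE 0.265, adjusted p = 0.0238). It was higher in the CNS by 1.10 (SE 0.265, adjusted p = 0.00697) and in epidermis with muscle by 0.88 (SE 0.265, adjusted p = 0.0387). In wing disc the difference was 0.60 (adjusted p = 0.127), and without replicate 3 of that tissue it was 0.97 (adjusted p = 0.0248). The call in the CNS was lost without CNS replicate 2 (0.88, adjusted p = 0.0664), that in epidermis with muscle without replicate 1 of that tissue (0.75, adjusted p = 0.119) or replicate 2 (0.77, adjusted p = 0.157), in the values as deposited (adjusted p = 0.0591), with 2 classes of rows (adjusted p = 0.0752) and without any of 4 arrays of other tissues (adjusted p = 0.0514 to 0.0564), and that in salivary gland without its replicate 1 (-1.01, adjusted p = 0.0575) or replicate 2 (-0.75, adjusted p = 0.119).

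**Figure D2:**
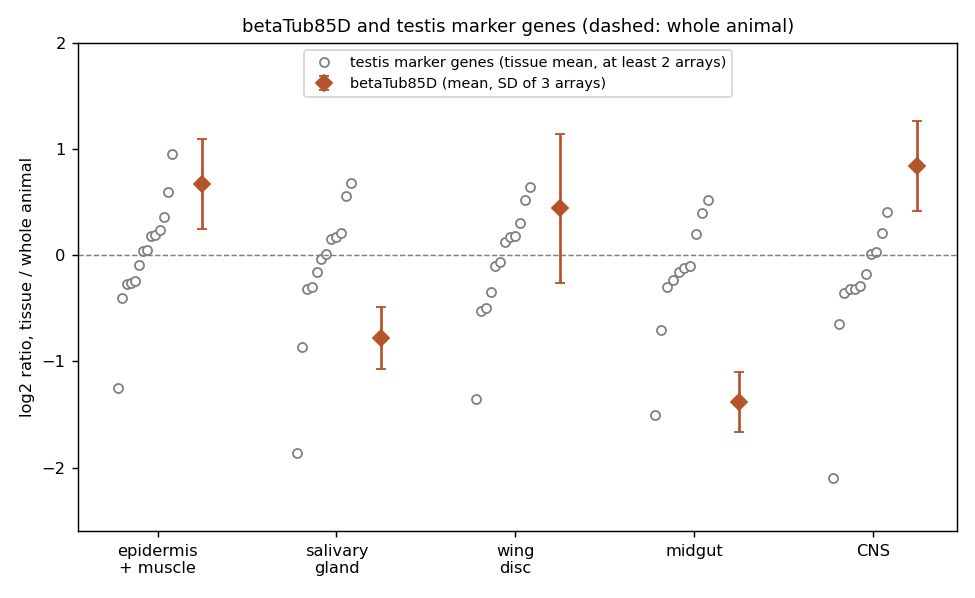
Log2 ratio of tissue over whole animal (vertical axis) in 5 tissues for betaTub85D (diamonds, mean with SD of 3 arrays) and for testis marker genes (open circles, tissue means over at least 2 arrays). The mean of betaTub85D stands above 0 in epidermis with muscle, wing disc and CNS, past the test against whole animal in the CNS only. It stands at -1.38 in midgut, where the marker genes range from -1.50 to 0.52.

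betaTub85D, a testis gene by its label, was set beside 15 other testis and male germ line genes with a measured value. They were measured on 5 to 15 arrays, and no testis was dissected, so the label itself was not tested. Of the 7 tested in every tissue, 1 differed among the tissues, against 44.5% of all features. bam, a switch gene of germ line differentiation, was 0.68 log2 higher in wing disc (SE 0.164, adjusted p = 0.0103, background 9.48%). The medians of these 7 genes' differences from the other 4 tissues were 0.26 in epidermis with muscle, 0.16 in wing disc, -0.10 in the CNS, -0.20 in salivary gland and -0.16 in midgut. Against whole animal, the medians of the testis genes tested in a tissue were 0.04 in epidermis with muscle (14 genes), 0.03 in wing disc (12), -0.29 in the CNS (11), -0.01 in salivary gland (12) and -0.14 in midgut (10). Single genes lay on either side of 0, and the 4 named next were chosen after their values were seen. Mst98Cb, a protein of the sperm tail, had mean ratios of -1.25, -1.86, -1.35, -1.50 and -2.10 in epidermis with muscle, salivary gland, wing disc, midgut and CNS. In the same order ocn had -0.09, -0.86, -0.53, -0.70 and -0.65. These 2 genes were measured on 15 and 14 arrays. For tomb, a regulator of meiotic genes, the means were 0.95, 0.56, 0.64, 0.46 and 0.27. For bol, which acts in male meiosis, they were 0.59, 0.68, 0.18, 0.52 and 0.43. The last 2 genes were measured on 9 and 10 arrays, both on a single array in midgut and in the CNS. In midgut, salivary gland, CNS and epidermis with muscle, where betaTub85D passed the test against the other 4 tissues, 0 of the 7 did by limma (1 in each at an unadjusted p under 0.05). Those single genes had the direction of betaTub85D in epidermis with muscle and salivary gland, and the opposite one in midgut and CNS. Over all features 8.11% were higher and 3.63% lower in epidermis with muscle, and 7.72% and 10.3% in salivary gland. The shares were 14.2% and 15.5% in midgut and 12.0% and 10.2% in the CNS. With shares this low, 0 of 7 does not set the testis genes apart from all features. Against whole animal, betaTub85D was higher by 0.84 log2 in the CNS (SE 0.237, adjusted p = 0.00973). It did not pass that test in epidermis with muscle (0.67, adjusted p = 0.0501) or wing disc (0.44, adjusted p = 0.15). It was lower in salivary gland (-0.78, adjusted p = 0.0191) and midgut (-1.38, adjusted p = 0.000489).

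Its tissue means were most like those of other tubulins. By Euclidean distance over the 5 tissue means, the nearest of 6623 genes were betaTub60D at 0.26 log2, betaTub56D at 0.391, alphaTub85E at 0.534, CG1354 at 0.539 and betaTub97EF at 0.546, while the median distance over all these genes was 2.254. Each array holds all of these genes against the same reference, so the likeness is a description. Within an array the 4 beta-tubulins lay 0.11 to 1.06 log2 apart, with a median range of 0.45. Whether the row of a beta-tubulin gene takes signal from its close paralogues was not tested, and probe sequences were not used here.

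The alpha-tubulins followed the same tissues. alphaTub84D, a general alpha-tubulin, was lower in salivary gland by 1.15 log2 against the mean of the other 4 tissues (SE 0.227, adjusted p = 0.00215) and lower in midgut by 1.08 (adjusted p = 0.00171). It was higher in the CNS by 0.96 (adjusted p = 0.00633) and in epidermis with muscle by 0.78 (adjusted p = 0.0334), from means of 0.84 in the CNS, 0.70 in epidermis with muscle, 0.47 in wing disc, -0.79 in midgut and -0.84 in salivary gland. alphaTub85E, known from testis and from muscle attachment sites, had means of 0.62, -0.97, 0.37, -0.96 and 0.59 in epidermis with muscle, salivary gland, wing disc, midgut and CNS, with calls in the same 4 tissues as alphaTub84D. Calls of both in epidermis with muscle were lost without replicate 2 of that tissue (adjusted p = 0.0987 for alphaTub84D and 0.131 for alphaTub85E) or replicate 3 (0.141 and 0.213) and in the values as deposited (0.065 and 0.0766), and that of alphaTub85E also when rows were centred in 2 classes (0.0508) and without any of 7 arrays of other tissues (0.0512 to 0.0577). In the CNS the call of alphaTub84D was lost without CNS replicate 3 (0.0528) and that of alphaTub85E without CNS replicate 2 (0.185) or 3 (0.124) and with arrays scaled to a common spread (0.0516), and in salivary gland that of alphaTub85E without its replicate 3 (0.0671).

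alphaTub67C, the alpha-tubulin that mothers load into the egg, was lower in midgut by 0.76 log2 (adjusted p = 0.0105) and in salivary gland by 0.65 (adjusted p = 0.0404), and higher in wing disc by 0.64 (adjusted p = 0.0388). Its CNS mean was 0.09, with array values of -0.01, -0.10 and 0.39. The 2 rows of this gene disagreed there, with means of 0.52 over 3 arrays and -0.69 over 2 arrays. With the replicate number as a block its calls in salivary gland (adjusted p = 0.0535) and wing disc (adjusted p = 0.0524) were lost. They were also lost without any 1 of 7 arrays each, with adjusted p up to 0.246 (without salivary gland replicate 3) and 0.129 (without wing disc replicate 3), and the midgut call was lost without midgut replicate 3 (0.0663). Centring in 2 classes of rows ended the salivary gland call (0.0702), and a common spread ended that in wing disc (0.0621).

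All 7 alpha- and beta-tubulins, of 14 members measured on all arrays, had every array of epidermis with muscle, wing disc and CNS above every array of salivary gland and midgut. Among all 4540 features on all arrays 3.68% did, and this grouping of tissues was chosen after the values were seen. For alphaTub67C, the average of 2 rows, the margin was narrow, with -0.10 on a CNS array and -0.14 on a salivary gland array. Its second row, measured on fewer arrays, did not have this separation. That row read -0.33 and -1.06 in the CNS, -0.39 in salivary gland and -0.55 in midgut. gammaTub37C, the gamma-tubulin of the female germ line, was measured on 8 arrays and tested against whole animal in 2 tissues. Its values were 0.37, 0.40 and 0.95 in salivary gland, a mean of 0.58 (SE 0.191, adjusted p = 0.0439), and 0.80 and 0.38 in epidermis with muscle (adjusted p = 0.103). The salivary gland call was lost when rows were centred in 2 classes and without replicate 2 or 3 of that tissue or midgut replicate 1.

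**Figure D3:**
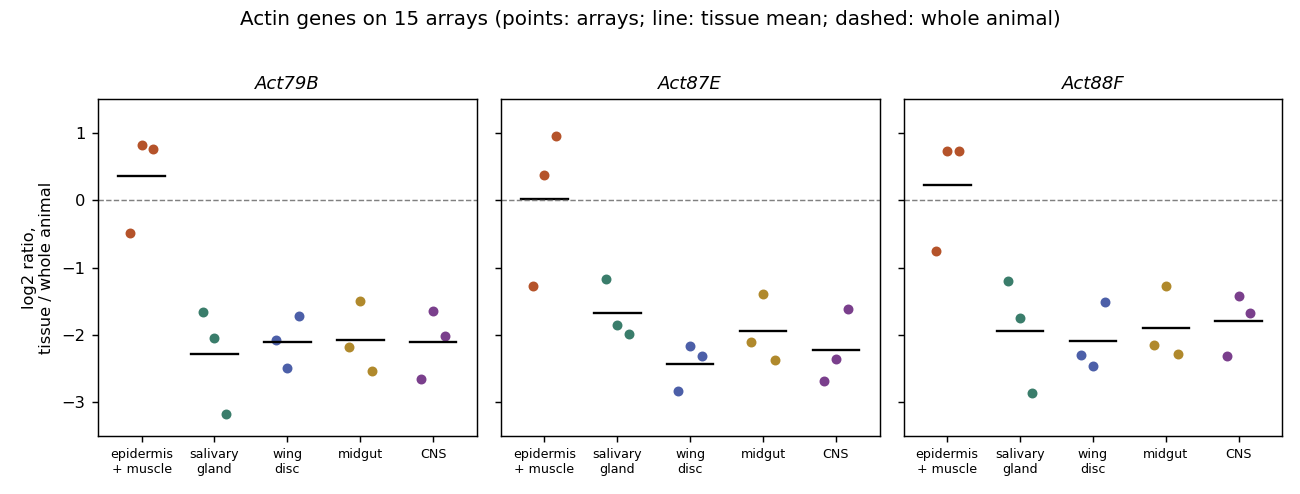
Log2 ratio of tissue over whole animal (vertical axis) for the 3 actin genes in 5 tissues, with 1 point per array, a line at the tissue mean and a dashed line at the whole animal's level. Means in epidermis with muscle lie between 0.02 and 0.36, and in the other 4 tissues between -2.43 and -1.67.

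The 3 actin genes had another pattern. No other actin gene was a member, so these values do not stand for actin in general. Act79B, Act87E and Act88F, which encode muscle actins, were near the whole animal's level in epidermis with muscle and well below it in the other 4 tissues. All 3 were higher in epidermis with muscle than in the mean of the other 4 tissues, and in the main analysis none of the 3 passed that test in another tissue. Of these 12 differences in limma, 2 had an unadjusted p under 0.05, Act79B in salivary gland (-0.81) and Act87E in wing disc (-0.97). Without replicate 1 of epidermis with muscle, Act87E was lower in wing disc (-1.13, adjusted p = 0.00615) and CNS (-0.88, adjusted p = 0.0243). Act79B was then lower in salivary gland (-0.92, adjusted p = 0.0392). With array weights all 3 were lower in wing disc (adjusted p = 0.000369 to 0.00369), Act79B and Act88F in midgut, and Act87E in the CNS. The median of the 3 genes was 0.23 in epidermis with muscle, -2.10 in wing disc, -2.11 in the CNS, -1.94 in salivary gland and -1.95 in midgut.

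Act79B, known from tubular muscles of the adult, had -0.49, 0.82 and 0.76 in epidermis with muscle. It had -2.07, -2.50 and -1.72 in wing disc, -2.65, -1.65 and -2.02 in the CNS, -1.66, -2.05 and -3.17 in salivary gland, and -2.18, -1.50 and -2.53 in midgut. Every array of epidermis with muscle was above all others, although replicate 1 lay well below the other two of its tissue. The difference from the other 4 tissues was 2.51 log2 (SE 0.338, adjusted p = 6.16e-05), or 5.68-fold.

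Act87E, an actin of larval body wall muscle, had -1.27, 0.37 and 0.95 in epidermis with muscle. Its values were -2.83, -2.16 and -2.31 in wing disc, -2.69, -2.36 and -1.61 in the CNS, -1.17, -1.85 and -1.99 in salivary gland, and -2.10, -1.39 and -2.37 in midgut. Here the groups overlapped, since replicate 1 of epidermis with muscle was below replicate 1 of salivary gland. The difference was 2.08 log2 (SE 0.365, adjusted p = 0.000814), or 4.24-fold.

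Act88F, the actin of the flight muscle, had -0.76, 0.73 and 0.74 in epidermis with muscle at this larval age. It had -2.30, -2.46 and -1.51 in wing disc, -2.31, -1.42 and -1.68 in the CNS, -1.20, -1.75 and -2.86 in salivary gland, and -2.15, -1.27 and -2.28 in midgut. Every array of epidermis with muscle was above the other 12, with replicate 1 again the lowest of the 3. The difference was 2.17 log2 (SE 0.366, adjusted p = 0.000589), or 4.49-fold. Of the 14 members on all arrays, Act79B and Act88F had this separation, against 5.99% of the 4540 features.

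Replicate 1 of epidermis with muscle was thus the lowest of its tissue for all 3 actins. Leaving out each array in turn gave differences of 2.28 to 2.93 for Act79B, 1.62 to 2.73 for Act87E and 1.92 to 2.66 for Act88F, all past the test. Most muscle marker genes moved the same way: 9 of 11 were higher in epidermis with muscle (background 8.11%). The median difference over all 11 was 2.98 log2. The largest of these differences were 5.43 for bt, a giant kinase of the sarcomere, 4.85 for Mlp84B, a LIM protein of muscle, and 4.84 for Mlc2, a myosin light chain. Strn-Mlck, of the same list, was instead 2.68 higher in salivary gland. The actins lay 0.08 to 1.18 log2 apart on the same array. Whether each actin row reads its own gene alone was not tested.

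Arp8 and Arp10 are actin-related proteins outside muscle, Arp8 in a chromatin remodelling complex and Arp10 in dynactin, the cofactor of dynein. Their means lay between 0.09 and 0.48 for Arp8 and between -0.29 and -0.12 for Arp10, and neither passed the F test (adjusted p = 0.591 and 0.979). Over all features, 8.11% were higher in epidermis with muscle and 3.63% lower. Among 14 actin filament regulators, 5 were higher in epidermis with muscle and 0 lower (limma, 0 also at an unadjusted p under 0.05). The largest were the filamin gene cher (2.83 log2), the severing protein gene Gel (2.18) and the pointed-end capping gene tmod (1.45). In the CNS 4 of the 14 were lower (background 10.2%) and 1 was higher (12.0%). In wing disc 3 were lower (10.3%) and 1 was higher (9.48%). Calls of these regulators went both ways in salivary gland and midgut too. Of 7 genes of the Arp2/3 complex and its activators, which nucleate branched actin, 1, Arpc4, was lower in epidermis with muscle (-0.74) and 0 were higher (limma, 0 at an unadjusted p under 0.05).

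**Figure D4:**
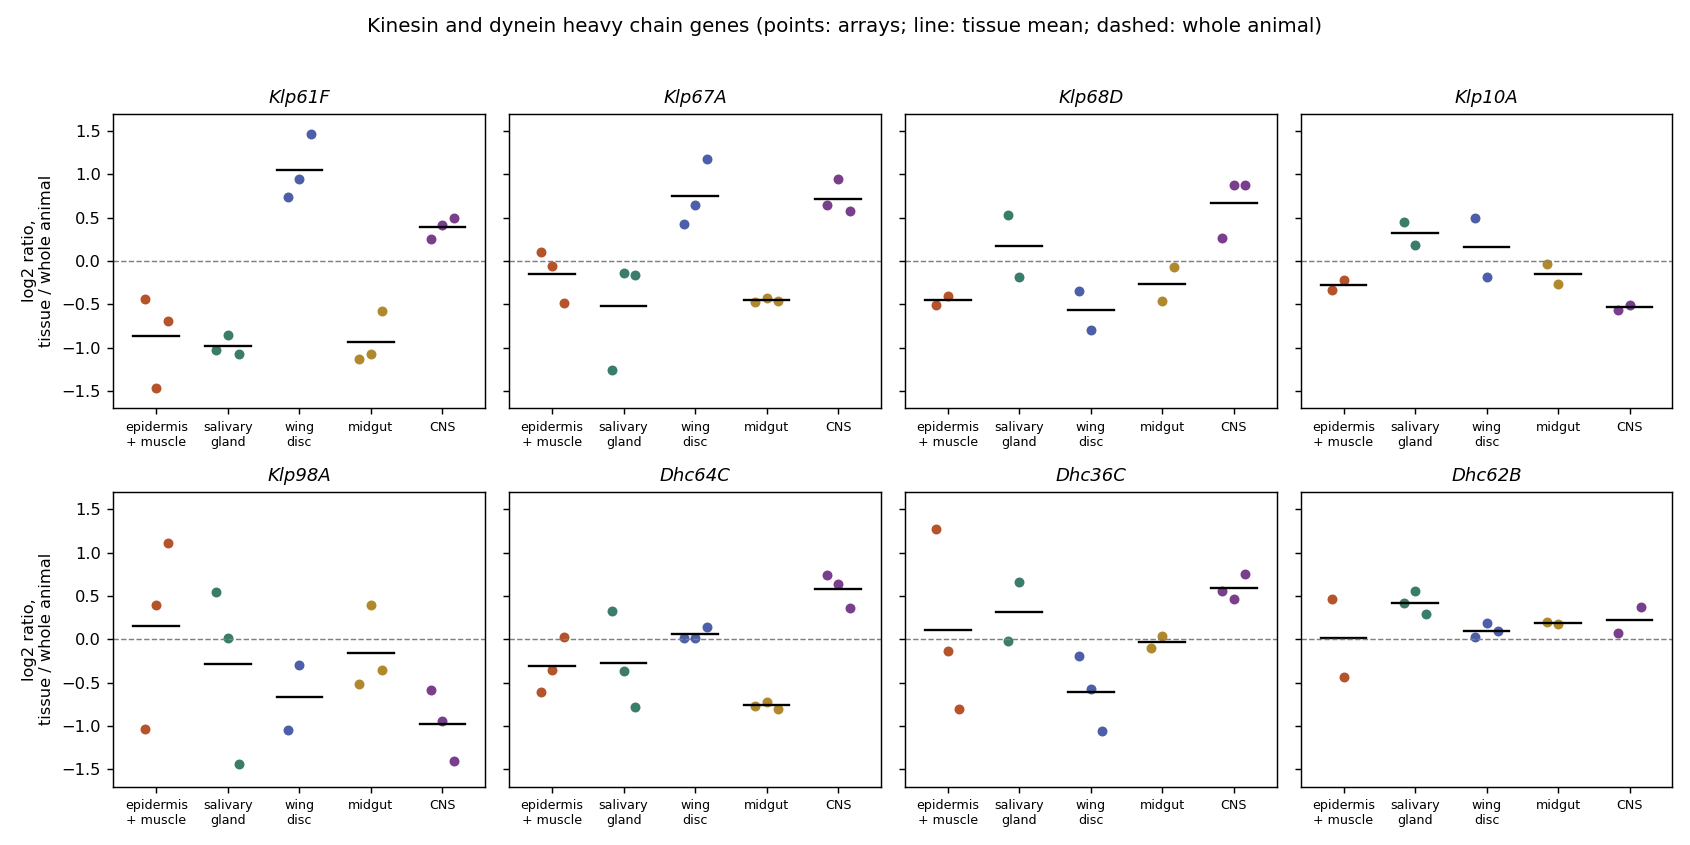
Log2 ratio of tissue over whole animal (vertical axis) for 5 kinesin and 3 dynein heavy chain genes tested in every tissue, with 1 point per array, a line at the tissue mean and a dashed line at the whole animal's level. Klp61F reaches 1.46 in wing disc, and Dhc64C lies between 0.36 and 0.74 in the CNS and between -0.80 and -0.72 in midgut.

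The kinesins did not share a single pattern. Klp61F, the kinesin-5 motor that pushes spindle poles apart, had 0.74, 0.95 and 1.46 in wing disc and 0.25, 0.42 and 0.49 in the CNS. It had -0.44, -1.47 and -0.69 in epidermis with muscle, -1.03, -0.85 and -1.07 in salivary gland, and -1.13, -1.07 and -0.58 in midgut. Wing disc was above every other array, CNS was next, and the other 3 tissues were below 0 without exception and overlapped one another. Klp61F was 1.65 log2 higher in wing disc than in the mean of the other 4 tissues (SE 0.214, adjusted p = 6.94e-05), or 3.13-fold, and 0.82 higher in the CNS (adjusted p = 0.0119). It was lower in epidermis with muscle, salivary gland and midgut, by 0.75, 0.89 and 0.82. The call in epidermis with muscle was lost without its replicate 2 (adjusted p = 0.241) or 3 (0.0637), that in midgut without its replicate 1 (0.0538), that in salivary gland with arrays scaled to a common spread (0.0613), and that in the CNS without CNS replicate 2 (0.0513) or 3 (0.0601). Wing disc and CNS differed by 0.66 (adjusted p = 0.217). Of the 14 members on all arrays only Klp61F had every wing disc array above all others, against 3.24% of features.

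Klp67A, a kinesin-8 that shortens spindle microtubules, was higher in wing disc by 0.85 log2 (SE 0.232, adjusted p = 0.0159) and in the CNS by 0.81 (adjusted p = 0.0195), and lower in salivary gland by 0.73 and in midgut by 0.66. The wing disc call was lost without wing disc replicate 3 (0.64, adjusted p = 0.126), that in the CNS without CNS replicate 2 (0.70, adjusted p = 0.106), that in salivary gland without its replicate 1 (-0.36, adjusted p = 0.338), and that in midgut without any 1 of its arrays (adjusted p = 0.107 to 0.113). The salivary gland call was lost too with 2 classes of rows (0.0792) or a common spread (0.0564), and the midgut call in the values as deposited (0.0541). Arrays of other tissues mattered as well. The salivary gland call was lost without CNS replicate 2 (adjusted p = 0.0547) or midgut replicate 1 (0.0512) or 2 (0.0513). The midgut call was lost without CNS replicate 2 (0.0612), salivary gland replicate 2 (0.0573) or 3 (0.0555), or wing disc replicate 3 (0.0568). Klp68D, a subunit of the kinesin-2 motor that works in axons and cilia, differed from both: its mean was 0.67 in the CNS and -0.57 in wing disc. It was higher in the CNS by 0.95 (SE 0.229, adjusted p = 0.0109), with values of 0.26, 0.88 and 0.88 there, and the call was lost without CNS replicate 2 (adjusted p = 0.0607) or 3 (0.0598). Its F test was lost too without CNS replicate 2 (0.0807) or 3 (0.0762). Wing disc minus CNS was -1.24 (SE 0.309, adjusted p = 0.0352), the 1 call among 22 members for this pair, against 5.53% of all features. Kap3, the accessory subunit of kinesin-2, was also higher in the CNS, by 0.69 (adjusted p = 0.00894).

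Klp10A, a kinesin-13 that takes microtubule ends apart, ranged from -0.53 in the CNS to 0.32 in salivary gland and did not pass the F test (adjusted p = 0.165). Klp98A, a kinesin-3 of endosomes, ranged from -0.98 in the CNS to 0.15 in epidermis with muscle, where its arrays read -1.04, 0.39 and 1.11 (adjusted p = 0.4). Among 8 kinesin genes with other names, 3 were higher and 1 lower in wing disc (background 9.48% and 10.3% of all features), 3 were higher in the CNS (12.0%) and 2 were lower in midgut (15.5%). In wing disc these were the spindle kinesins sub (1.59 log2), ncd (1.20) and neb (1.0). In salivary gland 3 were lower (10.3%) and 1 was higher (7.72%).

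Dhc64C, the heavy chain of cytoplasmic dynein, the main minus-end motor of the cell, had 0.74, 0.64 and 0.36 in the CNS and -0.77, -0.72 and -0.80 in midgut. It was 0.90 log2 higher in the CNS than in the mean of the other 4 tissues (SE 0.206, adjusted p = 0.00492) and 0.78 lower in midgut (adjusted p = 0.0089). Its means in epidermis with muscle, salivary gland and wing disc were -0.31, -0.27 and 0.06. Of 17 genes of other dynein and dynactin subunits, 2 were higher in the CNS and 2 were lower in midgut, with 1 higher there, shares no higher than the 12.0%, 15.5% and 14.2% of all features. In wing disc 2 of the 17 were higher (background 9.48%) and 1 was lower (10.3%). Spindly, an adaptor that brings dynein to kinetochores, was 0.91 higher in wing disc and 0.73 higher in the CNS. The other way round, cpa of the same list was 0.91 lower in wing disc and 1.44 higher in midgut.

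The other 5 dynein heavy chain genes, of which Dhc36C, Dhc62B, Dhc93AB and Dhc98D encode motors of cilia and flagella, were measured on fewer arrays. Dhc36C and Dhc62B had means between -0.61 and 0.59 and between 0.01 and 0.42, with adjusted p = 0.188 and 0.686 in the F test. Dhc93AB had values on 6 arrays: 1.48 and 0.95 in midgut, 0.63 and 0.98 in the CNS, 1.07 in salivary gland and 1.61 in wing disc. Each of these was above 0, and midgut was higher than whole animal by 1.21 log2 on 2 arrays (SE 0.236, adjusted p = 0.00701). This call was lost with the replicate number as a block and without midgut replicate 1 or 2. Dhc98D ranged from 0.19 to 0.99 on 6 arrays and Dhc1 from 0.14 to 1.40 on 5 arrays, all above 0. Klp31E, Klp59C and Klp59D ranged from -0.86 to 0.00, from -0.83 to 0.59 and from -1.20 to 0.93 on 9, 9 and 11 arrays. A row measured on few arrays had only the arrays where it could be read, and the reason for empty cells is not given in the sources used here.

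**Figure D5:**
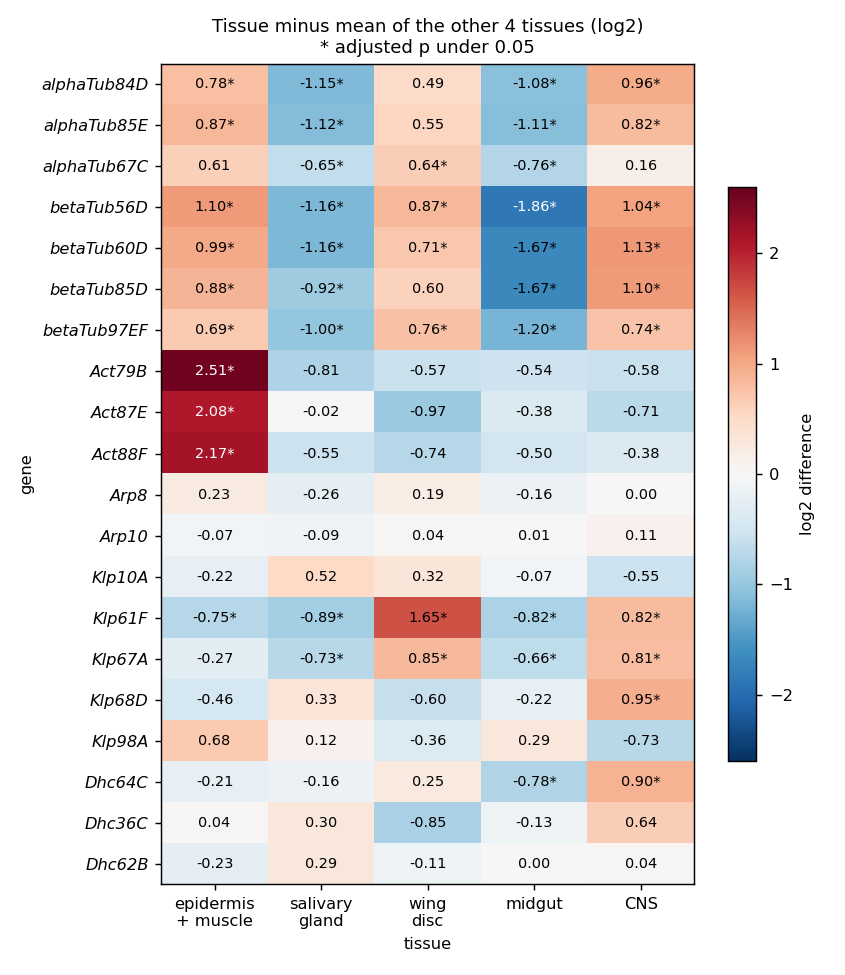
Difference between a tissue and the mean of the other 4 tissues (log2, colour and printed value; asterisk, adjusted p under 0.05) for the 20 members tested in every tissue. Tubulins are positive in 3 tissues and negative in salivary gland and midgut, the muscle actins Act79B, Act87E and Act88F are positive in epidermis with muscle, and Klp61F is 1.65 in wing disc.

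Counted over the 20 members and set against the mean of the other 4 tissues, 9 were higher in epidermis with muscle (background 8.11% of all features) and 1, Klp61F, was lower (background 3.63%). In salivary gland 0 were higher by limma (0 also at an unadjusted p under 0.05; background 7.72%) and 9 were lower (background 10.3%). In wing disc 6 were higher (background 9.48%) and 0 lower (3 at an unadjusted p under 0.05; background 10.3%). In midgut 0 were higher (0 at an unadjusted p under 0.05; background 14.2%) and 10 were lower (background 15.5%). In the CNS 10 were higher (background 12.0%) and 0 lower (1 at an unadjusted p under 0.05; background 10.2%), with 5 higher when CNS replicate 2 was left out and 6 without CNS replicate 3. Tubulins were 6 of the 9 members higher in epidermis with muscle, 7 of the 9 lower in salivary gland, 4 of the 6 higher in wing disc, 7 of the 10 lower in midgut and 6 of the 10 higher in the CNS. Of the 20 members, 7 were tubulins and 3 were actins, and each of these groups moved largely together. The counts are therefore not of independent genes, and signal shared between paralogues was not tested.

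Against whole animal, 4 of 24 members were higher in epidermis with muscle (background 12.1%) and 1 was lower (background 12.5%). In salivary gland 1 of 26, gammaTub37C, was higher (background 16.9%; 0 to 2 without 1 array, 0 with 2 classes of rows) and 11 were lower (background 18.6%), with 7 lower without salivary gland replicate 3. In wing disc 5 of 22 were higher (background 18.4%) and the 3 actins were lower (background 20.6%). In midgut 1 of 22, Dhc93AB, was higher (background 13.7%; 0 with the replicate block and without midgut replicate 1 or 2) and 12 were lower (background 15.1%). In the CNS 10 of 25 were higher (background 19.8%) and 5 were lower (background 21.3%), with 6 higher without CNS replicate 2 and 3 lower without CNS replicate 2 or 3. The counts above whole animal in epidermis with muscle and wing disc, 4 and 5, became 8 and 10 when rows measured on all arrays were centred apart from the rest.

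Pairs of tissues were compared as well. Between salivary gland and midgut 0 of 21 members differed (limma, 1 at an unadjusted p under 0.05), against a background of 14.8%, and between wing disc and CNS 1 of 22 did, Klp68D, against 5.53%. Pairs that set 1 of epidermis with muscle, wing disc and CNS against salivary gland or midgut gave 9 to 11 calls each: midgut and CNS in 11 of 22 members (background 26.8%), wing disc and midgut in 10 of 20 (24.7%), epidermis with muscle and midgut in 10 of 21 (16.4%), epidermis with muscle and salivary gland in 10 of 24 (10.5%), salivary gland and wing disc in 9 of 22 (18.3%), and salivary gland and CNS in 9 of 24 (19.2%). Epidermis with muscle and CNS differed in 6 of 23 (15.4%), namely the 3 actins, Klp61F, Klp68D and Dhc64C, and epidermis with muscle and wing disc in 4 of 22 (11.1%), the actins and Klp61F. No tubulin differed in these last pairs.

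Genes that fold tubulin and assemble microtubules moved in part with the tubulins. Over all features, 9.48% were higher in wing disc, 12.0% higher in the CNS, 10.3% lower in salivary gland and 15.5% lower in midgut. Of 11 genes for tubulin and actin folding, mostly subunits of the chaperonin CCT, 7 were higher in wing disc and 6 in the CNS, and 7 were lower in salivary gland and 9 in midgut. In epidermis with muscle, where 6 of the 7 tubulins were higher, 0 of the 11 passed in either direction (limma, 0 at an unadjusted p under 0.05) and their median difference was 0.19. CCT1, for example, was 1.22 log2 higher in wing disc, 1.11 higher in the CNS, 1.36 lower in salivary gland and 1.18 lower in midgut. Of 8 genes of the gamma-tubulin complex and augmin, 6 were higher in wing disc, 4 higher in the CNS, 4 lower in salivary gland and 5 lower in midgut. Grip91, a subunit of the gamma-tubulin ring complex, was 1.23 higher in wing disc and 1.09 lower in salivary gland.

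Cell division genes moved in these tissues as well. Of 15 tested, 11 were higher in wing disc (background 9.48%) and 10 in the CNS (12.0%). In salivary gland 10 were lower (10.3%), in midgut 12 (15.5%) and in epidermis with muscle 1 (3.63%). PCNA, the replication clamp, was 2.08 log2 higher in wing disc, 1.27 higher in the CNS and 2.03 lower in midgut. fzy, which switches on the anaphase-promoting complex, was 2.20 higher in wing disc and 1.40 lower in salivary gland. The part of dividing cells in the values of tubulins, Klp61F and Klp67A was not tested. Among 13 microtubule-binding proteins, 4 were higher (background 9.48%) and 1 lower (10.3%) in wing disc, and 2 were higher in the CNS (12.0%). In salivary gland 3 were lower (10.3%) and 1 was higher (7.72%), and 3 were lower in midgut (15.5%). Map60, a centrosomal protein, was 1.35 higher in wing disc and 1.59 higher in the CNS, while spas, which severs microtubules, had differences of -0.95 in wing disc and 0.88 in salivary gland. Both myosins measured differed among tissues, as did 44.5% of all features, and Myo28B1 was 2.17 higher in midgut. Of 15 measured genes of ciliated neurons and axonemes, 2 were tested in every tissue and 0 differed (limma, 0 at an unadjusted p under 0.05).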

How the data were processed

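RNA of 5 tissues was set against whole animals on 15 arrays, and groups and replicate numbers come from the titles. The values deposited by the authors are log2 ratios of tissue (Cy5) over whole animal (Cy3), per the labels. The base of the logarithm was read from the values: 892 to 1126 pairs of values per array differ by 1 within 2e-06, and 2 to 5 by the natural logarithm of 2. The sources used here give neither scanner, background correction nor normalization, and the number of arrays limits the precision. Whether the whole animal RNA was 1 pool is not given either, and its own spread is not in the p-values.

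Of 20000 rows, 14051 were measured. Among these, 10817 were annotated to 1 gene, 227 to several and 3007 to none, and 10813 matched a current gene record by the annotation of the array. Each array was centred on its median (-0.137 to 0.0816 as deposited), and rows of 1 gene were averaged, giving 13128 features. Limma (version 3.58.1, R 4.3.3) fitted 1 mean per tissue with moderated variances (prior degrees of freedom 5.965, prior SD 0.338). A feature needed 2 of 3 arrays in each tissue compared. Tests were an F test over tissues, the contrast of a tissue with the mean of the remaining 4, the 10 pairs, and the mean ratio against 0, with Benjamini-Hochberg adjustment over all features and a threshold of 0.05. The fit was also run on simulated data that gave a feature the same spread on all arrays, and no result here rests on that run. Tables and plots used python 3.11.15, pandas 2.3.3, numpy 2.4.6 and matplotlib 3.10.9.

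The members and the 18 gene lists were chosen with earlier results of these data known. Values on every array are given for betaTub85D and for members past the F test whose tissue means span at least 2 on the log2 scale, and up to 3 genes are named per list and tissue. Testis genes given against whole animal come on top of these.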

Additional observations from a re-analysis of the deposited data

Results flagged for a closer look

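For 11 members a pair of tissues lay on opposite sides of the whole animal on all their arrays, and limma's test of the difference between the tissues passed. In 7 of the 11, both tissues of such a pair also passed the test against whole animal. The share of all features with such a pair was not counted, and the sides depend on the centring of the arrays. The 4 members with such a difference of at least 2 log2 are given here, each by its largest one; the others were alphaTub84D, alphaTub85E, alphaTub67C, betaTub97EF, Klp67A, Klp68D and Dhc64C. betaTub56D differed by 2.37 log2 in epidermis with muscle minus midgut (SE 0.215, adjusted p = 5.84e-07), with means of 0.90 in epidermis with muscle and -1.47 in midgut. betaTub60D differed by -2.24 in midgut minus CNS (SE 0.216, adjusted p = 1.17e-06), with means of -1.32 in midgut and 0.92 in the CNS. betaTub85D differed by -2.22 in midgut minus CNS (SE 0.335, adjusted p = 0.00011), with means of -1.38 in midgut and 0.84 in the CNS. Klp61F differed by -2.03 in salivary gland minus wing disc (SE 0.271, adjusted p = 6.43e-05), with means of -0.98 in salivary gland and 1.05 in wing disc.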

How the results depend on the processing

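Every test rests on 3 arrays per tissue. Over 2010 tests of a member in a tissue against the other 4, repeated under other settings or without 1 array, 1913 kept their direction and side of the threshold, 73 lost the call, 24 gained it and 0 turned round. Of 402 F tests, 395 kept their side, 2 lost the call (Klp68D) and 5 gained it. Of 45 calls of single members against the other 4 tissues, 26 held without each array in turn. Weights for arrays, which ranged from 0.355 to 5.98, gave 18 of the gains. They moved the members lower than the other 4 tissues to 2 in epidermis with muscle, 5 in wing disc and 1 in the CNS, and against whole animal gave 11 higher and 5 lower in epidermis with muscle, 2 higher in salivary gland, and 10 higher and 5 lower in wing disc. Centring in 2 classes of rows gave 8 higher than whole animal in epidermis with muscle, 0 in salivary gland and 10 in wing disc. Scaling to a common spread gave 9 higher in epidermis with muscle, 2 higher in salivary gland and 3 lower in the CNS, and values as deposited 3 lower in the CNS. With features on all 15 arrays only, members higher than whole animal were 0 in salivary gland and 0 in midgut, 3 were lower in the CNS, and the span of the family medians over tissues was 1.65 for kinesins and 1.34 for dynein heavy chains, since fewer genes enter. That filter also moved the share of higher calls among all calls against whole animal to 26.91% in salivary gland, against 47.57% in the main analysis, 38.15% against 49.28% in epidermis with muscle, 36.07% against 47.19% in wing disc and 34.57% against 47.57% in midgut. The replicate block gave 0 members higher in midgut than whole animal, and among 120 member tests lost 2 calls, both of alphaTub67C (adjusted p = 0.0535 in salivary gland and 0.0524 in wing disc). Correlations of the arrays' deviations from their tissue means did not settle whether arrays were paired by number. Same-numbered arrays of different tissues gave -0.487 to 0.352 (median 0.0345, 11 of 30 over 0.1). Arrays of different number gave -0.43 to 0.58 (median -0.0299, 13 of 60 over 0.1), and 6 of 15 arrays correlated best with their own number. Replicate 3 had the fewest measured rows in all 5 tissues, and whether a number marks a shared set is not given in the sources used here.

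Without each array in turn, members differing from the other 4 tissues ranged from 0 to 1 (lower, epidermis with muscle), 0 to 2 (lower, wing disc), 5 to 10 (higher, CNS) and 0 to 1 (lower, CNS). Against whole animal they ranged from 0 to 1 (lower, epidermis with muscle), 0 to 2 (higher, salivary gland), 7 to 12 (lower, salivary gland), 0 to 1 (higher, midgut), 6 to 11 (higher, CNS) and 3 to 5 (lower, CNS), and the dynein span ranged from 0.53 to 1.02. Where no construction of the alternative shows it, the cause was not tested.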
